A study of Mus musculus with 12 samples.

Results

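Retained-intron transcripts are RNA isoforms that the mouse annotation lists with intron sequence left in, on genes whose coding isoforms remove it. The rule took every listed transcript of type retained_intron in GENCODE M21 on GRCm38. This gave 21460 of the 117081 transcripts in the deposited tables, on 9146 of 35450 genes, and 21411 of them belonged to protein-coding genes. Their reads were expressed as a share of all reads of the same gene, called the retained-intron share, in the 6673 genes with 20 or more reads in every library. These genes carried 17023 of the transcripts, and 178 of them had no retained-intron read in any library. A test per gene needed at least 5 retained-intron reads and 5 other reads a library on average, which 4919 genes had and 1754 did not. *Dnajc12* and *Lyrm7* lay just inside the limit on gene reads with exactly 20 reads in their lowest library, and *Gm37240* and *Fstl1* just outside with 19.976 and 19.07.

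The libraries were made from total RNA of 4T1 cells, a mouse mammary carcinoma line of BALB/c origin, in 3 groups of 4. In 1 group, 4T1 cells shared a Transwell for 48 hours with Gr1+ cells isolated with MACS from the tumors of 4T1 tumor-bearing BALB/c mice (Tu-Gr1+CD11b+–primed 4T1, here Tu-primed). In another, the Gr1+ cells came from the spleens of such mice (Spl-Gr1+CD11b+–primed 4T1, here Spl-primed), and the parental group was kept without Gr1+ cells. The membrane had 0.4 µm pores, so that the cell types faced each other without mixing, and the labels give day 21 for the isolation. All groups were the same line, with no allele or drug that distinguished them, and the control was the absence of Gr1+ cells rather than another cell type. For the parental group the labels give no culture time and no membrane. Differences in culture handling or library preparation therefore cannot be told apart from priming in any comparison with parental cells. Whether the 4 libraries of a group came from separate cultures is not given, so p-values measure the spread between these libraries, which may be technical.

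In splicing, introns are cut out of the primary transcript before the mRNA is exported from the nucleus. Transcripts that keep an intron are often held in the nucleus, where they can be spliced later or degraded, or they reach the cytoplasm and are removed by nonsense-mediated decay. Genes of the splicing machinery, among them those of SR proteins and of the CLK kinases that phosphorylate SR proteins, are known for introns of this kind, called detained introns when they stay in the nucleus.

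Retained-intron entries in the annotation are partly exon and partly intron. Their median length was 875.5 bases, and a median of 42.1% of a transcript's bases lay outside the exons of the gene's coding transcripts (quartiles 21.7% and 65.9%). A whole intron of a coding transcript was held by 6473 of them, while 120 had no base outside coding exons. Reads on the shared exon bases were divided among isoforms by the authors' quantification, so the share is an estimate that is least certain where few bases are unique. Of the 8672 introns held, 8491 (97.9%) began with GT and ended with AG. The introns printed next are held whole by a retained-intron transcript of a gene whose values are described below, to show the sequence that such a transcript keeps. Counts were estimated for whole transcripts, exon bases included, and no read was placed on an intron. For *Srsf5* the intron was taken from a transcript that was not the one with the most reads. They were read from GRCm38, 5′ to 3′ on the gene's strand, and the capitals mark the GT and AG ends.
The first 4 belong to a CLK kinase pair, an SR protein and a methionine adenosyltransferase, genes described for detained introns or for splicing.
Clk1, chr1:58417180-58417266 (- strand): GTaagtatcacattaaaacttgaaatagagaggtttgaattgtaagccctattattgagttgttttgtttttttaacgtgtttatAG
Clk4, chr11:51275579-51275769 (+ strand): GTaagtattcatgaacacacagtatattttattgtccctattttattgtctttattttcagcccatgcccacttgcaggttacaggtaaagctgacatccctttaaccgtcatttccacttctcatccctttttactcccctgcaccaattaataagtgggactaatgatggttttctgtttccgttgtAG
Srsf5, chr12:80949605-80949716 (+ strand): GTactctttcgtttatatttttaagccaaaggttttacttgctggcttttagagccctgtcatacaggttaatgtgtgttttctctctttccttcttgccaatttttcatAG
Mat2a, chr6:72437118-72437370 (- strand): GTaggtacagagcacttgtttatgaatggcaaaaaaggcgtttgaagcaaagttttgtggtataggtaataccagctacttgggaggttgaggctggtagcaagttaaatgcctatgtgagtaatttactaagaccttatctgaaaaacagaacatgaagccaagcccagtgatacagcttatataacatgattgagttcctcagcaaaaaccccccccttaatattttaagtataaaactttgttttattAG
The next 4 belong to genes with the smallest p-values among higher shares.
Hsp90ab1, chr17:45569127-45569239 (- strand): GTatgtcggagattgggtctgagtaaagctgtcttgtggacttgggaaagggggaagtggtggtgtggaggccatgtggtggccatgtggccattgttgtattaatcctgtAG
Haus5, chr7:30659127-30659288 (- strand): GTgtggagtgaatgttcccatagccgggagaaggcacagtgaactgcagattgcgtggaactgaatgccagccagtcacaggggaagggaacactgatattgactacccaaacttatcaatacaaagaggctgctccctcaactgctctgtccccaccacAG
Rab24, chr13:55321459-55321537 (- strand): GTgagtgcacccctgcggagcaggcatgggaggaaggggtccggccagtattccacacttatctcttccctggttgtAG
Pdhb, chr14:8172818-8172890 (- strand): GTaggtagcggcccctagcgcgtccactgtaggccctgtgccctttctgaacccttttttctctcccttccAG
The last 3 are shown for contrast. *Ncl* and *Gapdh* carried the most retained-intron reads, and *Abcc10* had a lower share in both primed groups.
Ncl, chr1:86352320-86352509 (- strand): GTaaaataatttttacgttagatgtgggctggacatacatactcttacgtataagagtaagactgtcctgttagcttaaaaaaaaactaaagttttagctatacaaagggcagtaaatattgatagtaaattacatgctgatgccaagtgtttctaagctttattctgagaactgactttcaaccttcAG
Gapdh, chr6:125162394-125162477 (- strand): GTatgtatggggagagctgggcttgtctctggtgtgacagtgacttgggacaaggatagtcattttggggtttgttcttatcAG
Abcc10, chr17:46323580-46323692 (- strand): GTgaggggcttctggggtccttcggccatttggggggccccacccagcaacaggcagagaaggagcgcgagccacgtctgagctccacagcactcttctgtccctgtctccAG
These introns ranged in GC content from 27.6% in *Clk1* to 64.6% in *Abcc10*. They are introns of coding transcripts and lie inside an exon of the retained-intron transcript.

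Library totals lay between 24566183 and 31637755 reads. The 6 epithelial markers examined had 20 or more reads in every library, with a summed level of 1739 to 2316 CPM (counts scaled to the library total) in primed and 2200 to 3045 CPM in parental libraries. Of the 13 granulocyte markers, 4 had no read in any library and their summed level was 161 to 197 CPM in Tu-primed, 136 to 159 CPM in Spl-primed and 111 to 125 CPM in parental libraries. Macrophage markers summed to 2.85 to 4.44 CPM, with *Adgre1* at 0. The part of these differences in the results was not tested, and in bulk RNA fewer cells of a type and less RNA per cell cannot be told apart. Parental replicate 2 lay nearest to the primed libraries: of the 4 parental libraries it had the highest retained-intron share in 2462 of the 4919 tested genes (50.1%), against 739 to 878 for each of the others.

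Both primed groups held more retained-intron reads than parental cells. Retained-intron reads of the 6673 genes were pooled. They were set against all reads of the 11146 genes with 20 or more reads in every library, with or without a retained-intron transcript. This pooled share was 3.28%, 3.44%, 3.48% and 3.26% in Tu-primed libraries. It was 3.05%, 3.31%, 3.63% and 3.38% in Spl-primed and 2.08%, 2.28%, 2.10% and 2.05% in parental libraries. Every primed library lay above every parental one. The Tu-primed mean (3.37% ± 0.110, SD, n = 4) was 1.58 times and the Spl-primed mean (3.34% ± 0.240) 1.57 times the parental mean (2.13% ± 0.102), and each difference had p = 0.0286 in the two-sided exact permutation test of 4 against 4, the smallest p that test can give, or 0.0429 adjusted over the 3 comparisons. The primed groups overlapped and differed by 0.0236 percentage points (exact permutation p = 0.857). Other isoform classes were also apart. Pooled transcripts annotated for nonsense-mediated decay averaged 2.37% in Tu-primed, 2.40% in Spl-primed and 2.01% in parental libraries. For processed transcripts the means were 2.64%, 2.68% and 2.54%. In both classes neither primed group overlapped parental cells (exact permutation p = 0.0286 each, adjusted 0.0429).

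The typical gene showed a wider gap than the pooled reads did. The median over the 6673 genes was 2.12%, 2.25%, 2.43% and 2.00% in Tu-primed, 1.89%, 2.09%, 1.95% and 2.23% in Spl-primed and 0.510%, 0.921%, 0.392% and 0.387% in parental libraries. The means were 2.20% ± 0.187, 2.04% ± 0.151 and 0.552% ± 0.252 (SD, n = 4), with no overlap between primed and parental libraries (exact permutation p = 0.0286, adjusted 0.0429). The difference between the primed groups was 0.162 percentage points (exact permutation p = 0.2). Between 813 and 929 of these genes had no retained-intron read in a primed library, compared with 1392 to 2065 in a parental library. Retained-intron transcripts with at least 1 read numbered 12745 to 13123 in primed and 8058 to 10361 in parental libraries.

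**Figure D1:**
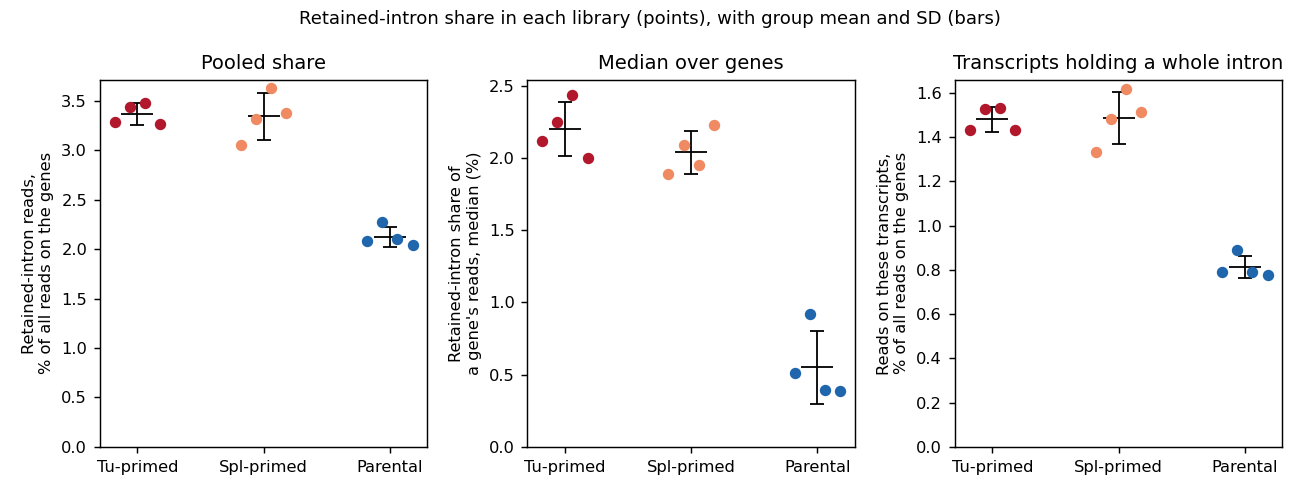
Retained-intron share of reads (%) in each library for 6673 genes, pooled as a part of all reads on 11146 genes and as the median over the 6673. Points are libraries, bars the group mean and SD of 4 libraries. All primed libraries lie at 3.05% or more pooled and 1.89% or more as a median, above all parental libraries at 2.28% or less and 0.921% or less.

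The split by make-up of the transcripts, given without a test of the difference between its parts, was as follows. Retained-intron transcripts with 50% or more of their bases outside coding exons held 0.809% ± 0.0770 of the pooled reads in Tu-primed, 0.738% ± 0.0553 in Spl-primed and 0.271% ± 0.0623 in parental libraries (SD, n = 4), which is 2.98 and 2.72 times the parental mean. Those with fewer such bases held 2.56% ± 0.0434, 2.61% ± 0.213 and 1.86% ± 0.0452, which in Tu-primed cells is 1.38 times the parental mean. Transcripts holding a whole intron took 1.48% ± 0.0558, 1.49% ± 0.116 and 0.813% ± 0.0514. None of these primed groups overlapped parental cells (exact permutation p = 0.0286 each, adjusted 0.0429). Without the 10 genes with the most retained-intron reads, the pooled shares were 2.99% ± 0.119, 2.93% ± 0.223 and 1.65% ± 0.120, since those 10 genes made up 11.6% to 14.3% of retained-intron reads in primed but 20.8% to 25.5% in parental libraries.

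The retained-intron share was called higher in many of the tested genes of each primed group, a count that includes genes with enough reads for the test in primed libraries alone. The share was tested with edgeR's quasi-likelihood test, in which a difference is a log2 odds ratio and a gene was called at a Benjamini-Hochberg adjusted p under 0.05 over 9898 rows of gene and non-coding isoform class. In Tu-primed against parental cells the share rose in 2652 of 4919 genes (53.9%) and fell in 21, where 34.1% of all rows were called higher and 1.04% lower. In Spl-primed against parental cells it rose in 2489 (50.6%) and fell in 16, where 31.7% and 0.828% of all rows were called. The median log2 odds ratio was 1.66 and 1.55. Both comparisons used the same 4 parental libraries, so their counts are not independent. Transcripts annotated for nonsense-mediated decay rose in 288 of 2166 genes and fell in 39 in Tu-primed cells (median 0.33), and processed transcripts rose in 436 of 2772 and fell in 39 (median 0.32). In Spl-primed cells the corresponding counts were 266 and 29 (median 0.33), and 380 and 34 (median 0.28).

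No gene's retained-intron share was called different between the primed groups. In Tu-primed against Spl-primed cells 0 of 4919 genes were called in either direction by edgeR's quasi-likelihood test, by DESeq2 or by limma on logit shares, where 0.0% of all rows were called. An unadjusted p under 0.05 was reached by 117 genes, and the median log2 odds ratio was 0.09. All Tu-primed libraries lay above all Spl-primed ones in 168 of the 4919 genes (3.42%) and below them in 63 (1.28%). This was not counted for the other isoform classes, so it is not read as a result about these genes. The absence of calls does not show that the shares were equal. A gene could enter the test through its primed libraries alone. With at least 5 retained-intron reads on average in every group, an alternative added after the data were seen, 3757 genes were tested. The share rose in 1965 (52.3%) and fell in 21 in Tu-primed cells (median 1.37). In Spl-primed cells it rose in 1855 (49.4%) and fell in 13 (median 1.27). No percentage over all rows of that fit is given, so these counts are not set against other isoform classes.

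**Figure D2:**
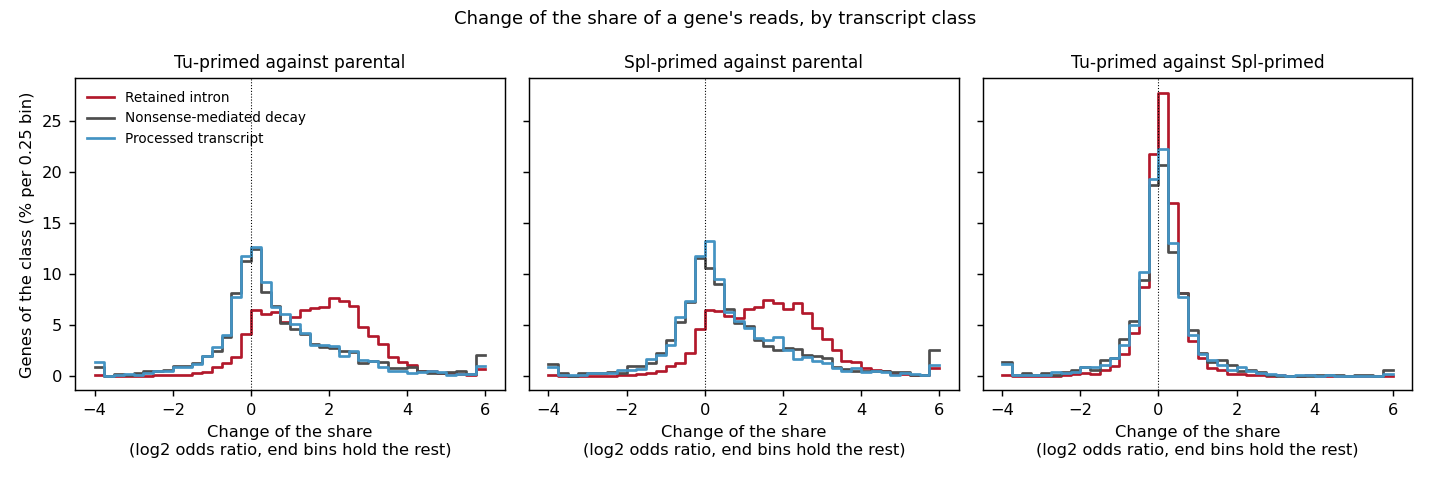
Distribution of the change of a gene's isoform share (log2 odds ratio, bins of 0.25) for retained-intron, nonsense-mediated decay and processed transcripts in the 3 comparisons; the vertical axis is the percentage of genes of the class. Retained-intron shares centre at 1.66 and 1.55 against parental cells and at 0.09 between the primed groups.

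The genes with the smallest p-values among higher shares had varied functions and widely different shares of the gene's reads. The rule that named them took only genes called higher whose primed and parental libraries did not overlap, so that separation is a property of the choice. *Cdca3*, which promotes entry into mitosis, had shares of 29.6%, 31.7%, 32.2% and 30.6% in Tu-primed and 27.7%, 28.2%, 32.6% and 33.4% in Spl-primed libraries. Its parental libraries had 6.40%, 6.45%, 7.32% and 6.88%. The log2 odds ratio was 2.63 ± 0.18 (SE) in Tu-primed and 2.59 ± 0.18 in Spl-primed cells (edgeR adjusted p = 3.68e-05 and 4.14e-05). *Parp2*, a poly(ADP-ribose) polymerase of the DNA damage response, had 16.9%, 14.7%, 20.5% and 18.1% in Tu-primed and 15.1%, 17.4%, 20.6% and 19.4% in Spl-primed libraries. In parental libraries the *Parp2* share was 0.992%, 1.15%, 0.445% and 0.953%, on 2.10 to 6.09 retained-intron reads a library. Its log2 odds ratios, 4.51 ± 0.31 and 4.57 ± 0.31, rest on these few parental reads, and *Parp2* entered the test through its primed libraries alone (adjusted p = 3.68e-05 and 4.14e-05).

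*Haus5*, a subunit of the augmin complex of the spindle, had 6.58% to 11.5% in primed and 0.280% to 0.797% in parental libraries (log2 odds ratios 4.06 ± 0.31 and 4.05 ± 0.31). With at most 3.44 retained-intron reads in a parental library, *Haus5* also entered the test through its primed libraries alone and was not tested with the minimum in every group. Its leading retained-intron transcript overlaps another gene on the same strand. *Pdhb*, the beta subunit of the first pyruvate dehydrogenase enzyme, had 3.67% to 5.45% in primed and 0.356% to 0.757% in parental libraries, with log2 odds ratios of 3.23 ± 0.27 and 3.08 ± 0.27. Its leading retained-intron transcript was 86.0% intron and held 4 whole introns, the one printed above among them.

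*Hsp90ab1* and *Akt1* had small shares in every library. *Hsp90ab1*, a cytosolic chaperone, had 0.129%, 0.171%, 0.122% and 0.128% in Tu-primed, 0.0940%, 0.112%, 0.117% and 0.0955% in Spl-primed and 0.0185%, 0.0255%, 0.0163% and 0.0214% in parental libraries. These shares stand for 107 to 164 retained-intron reads in primed and 18.8 to 28.9 in parental libraries (log2 odds ratios 2.75 ± 0.18 and 2.35 ± 0.18, adjusted p = 3.68e-05 and 6.48e-05). *Akt1*, a central growth and survival kinase, had 0.333% to 0.570% in primed and 0.0185% to 0.0588% in parental libraries (log2 odds ratios 3.54 ± 0.28 and 3.15 ± 0.28). Only 14.2% of the bases of the leading *Hsp90ab1* transcript lay outside coding exons, compared with 69.8% for *Akt1*.

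The remaining genes of this set were *Poldip2*, *Colgalt1*, *Srrm1*, *Racgap1*, *Foxred1* and *Rab24*. *Srrm1*, a coactivator of splicing, had 6.50% to 9.05% in primed and 1.09% to 1.71% in parental libraries. *Colgalt1*, which adds galactose to collagen, had 7.93% to 11.8% and 0.834% to 1.87%. *Racgap1*, needed for cytokinesis, had 1.98% to 2.94% and 0.410% to 0.573%. *Rab24*, a small GTPase linked to autophagy, had 21.2% to 29.4% against 3.62% to 5.32%, *Foxred1*, an assembly factor of respiratory complex I, had 22.3% to 26.6% against 3.06% to 5.56%, and *Poldip2* had 2.86% to 3.89% against 0.296% to 0.550%. Over these 6 genes the log2 odds ratios lay between 2.28 ± 0.19 for *Racgap1* in Tu-primed and 3.23 ± 0.27 for *Colgalt1* in Tu-primed cells.

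**Figure D3:**
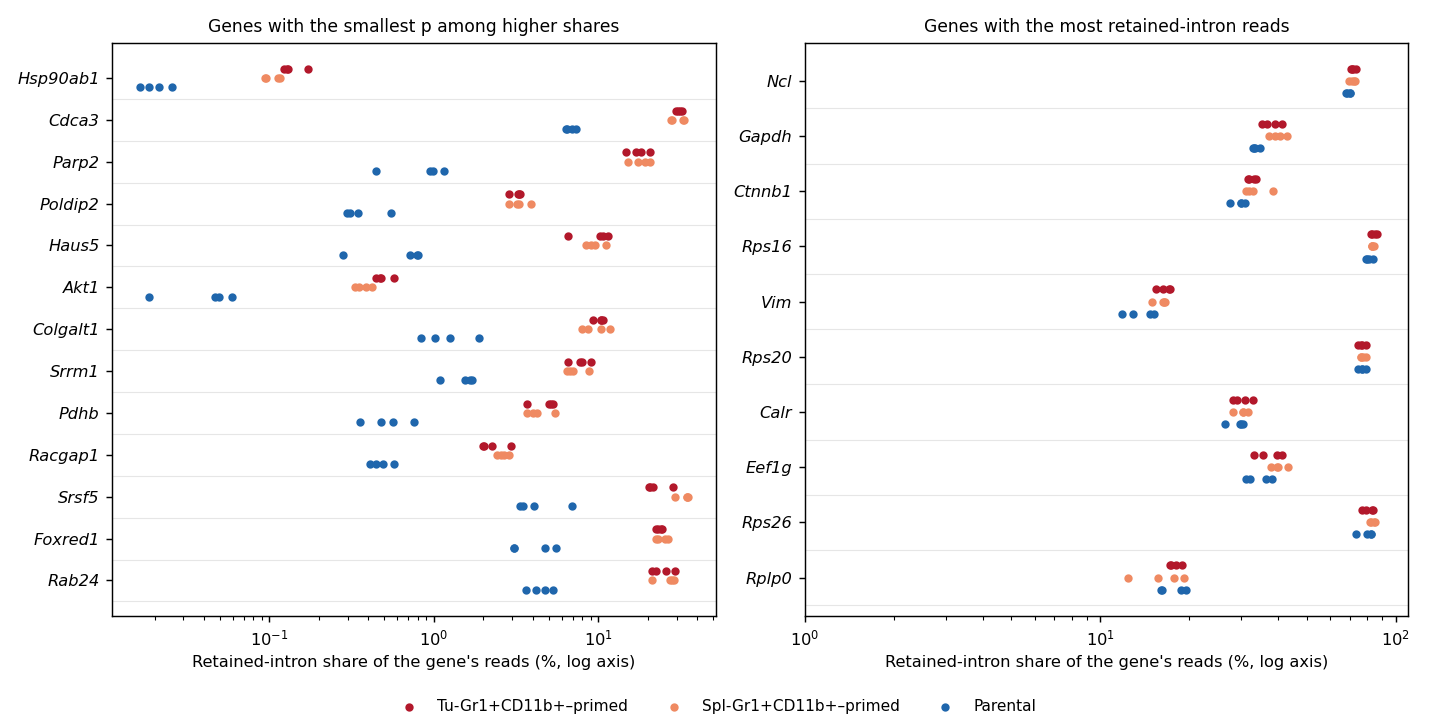
Retained-intron share of the gene's reads (%, log axis) in each of the 12 libraries, for 13 genes with the smallest p among higher shares and for the 10 genes with the most retained-intron reads; each point is a library. In the first set primed and parental libraries are apart, as the choice of genes required, for example in Cdca3 (27.7% or more against 7.32% or less), and in the second they lie close or overlap, as for Ncl (69.7% to 73.4% against a mean of 69.1% in parental libraries).

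Genes of SR proteins, which bind exons and recruit the splicing machinery, mostly had higher retained-intron shares in both primed groups. Of 10 such genes with a retained-intron transcript, the share rose in 9 in each primed group and fell in 0, with a median log2 odds ratio of 2.70 in Tu-primed and 2.64 in Spl-primed cells, against 53.9% and 50.6% called higher and medians of 1.66 and 1.55 over all 4919 genes. *Srsf5* had 20.6%, 21.5%, 20.4% and 28.7% in Tu-primed, 29.2%, 34.8%, 35.3% and 34.8% in Spl-primed and 3.50%, 6.88%, 3.33% and 4.09% in parental libraries. All Spl-primed libraries exceeded all Tu-primed ones, and all of these exceeded the parental ones, but the difference between the primed groups was not called (log2 odds ratio -0.78 ± 0.26, adjusted p = 1). Against parental cells the log2 odds ratio was 2.71 ± 0.27 and 3.50 ± 0.27 (adjusted p = 9.20e-05 and 6.54e-05). In 9 of these 10 genes parental replicate 2 was the highest parental library. This list and the gene lists below were chosen with earlier results of these data known.

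*Srsf3* had 16.3%, 17.6%, 19.3% and 16.2% in Tu-primed, 16.1% to 18.2% in Spl-primed and 1.75%, 4.76%, 0.730% and 1.41% in parental libraries. Parental replicate 2 stood above the other parental libraries and still far below the primed ones (log2 odds ratio 3.59 ± 0.46 in both comparisons). *Srsf11* had the highest shares of the family, 55.4%, 54.1%, 57.5% and 46.1% in Tu-primed, 39.2%, 43.3%, 38.7% and 48.7% in Spl-primed and 14.4%, 19.6%, 12.2% and 12.5% in parental libraries. In *Srsf7* the share was 20.6% to 26.1% in primed and 2.92% to 6.62% in parental libraries, in *Srsf6* 11.2% to 15.2% and 0.881% to 3.00%, and in *Srsf2* 10.9% to 14.4% and 0.653% to 2.96%. The smaller differences were those of *Srsf4*, 6.44% to 11.4% against 3.35% to 4.03%, and *Tra2b*, with means of 2.84 ± 0.595% in Tu-primed and 2.09 ± 0.160% in Spl-primed against 1.05 ± 0.240% in parental libraries (SD, n = 4). The Spl-primed call of *Tra2b* was lost on shares of TPM (limma adjusted p = 0.0734). *Tra2a*, like *Tra2b* an SR-like splicing activator, had 6.81% to 12.8% against 0.952% to 4.23%.

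*Srsf1* was the exception in this family. Its share was 6.66%, 6.83%, 7.41% and 8.80% in Tu-primed, 7.86%, 8.16%, 5.01% and 7.99% in Spl-primed and 6.29% to 7.73% in parental libraries, and the groups overlapped. The log2 odds ratio was 0.10 ± 0.20 (adjusted p = 0.743) and 0.05 ± 0.20 (0.877) in edgeR's test. The leading *Srsf1* transcript of this class has 0 of its 759 bases outside coding exons, although it spans a whole intron of a coding transcript that other coding isoforms keep as exon.

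The kinases that phosphorylate SR proteins were also higher. The share rose in 6 of 6 in Tu-primed and in 5 of 6 in Spl-primed cells, where 53.9% and 50.6% of all tested genes were called higher. The median log2 odds ratios of 1.74 and 1.98 compare with 1.66 and 1.55 over all tested genes. *Clk1* had 34.8%, 35.6%, 35.5% and 35.7% in Tu-primed and 35.1%, 38.2%, 37.1% and 41.3% in Spl-primed libraries. Its parental libraries had 5.19%, 13.9%, 9.69% and 5.97%, all below the primed range. The log2 odds ratio was 2.63 ± 0.31 and 2.79 ± 0.32 (adjusted p = 0.000195 and 0.000192). The transcript that holds the *Clk1* intron printed above took 572 to 753 reads in primed and 32.7 to 109 in parental libraries. *Clk4* had 25.8%, 29.3%, 27.6% and 32.8%, 31.5%, 33.3%, 30.1% and 35.0% and 7.87%, 13.8%, 9.03% and 7.10% in the 3 groups, again without overlap between primed and parental libraries, and the transcript with its printed intron took 241 to 338 reads in primed and 22.9 to 54.8 in parental libraries.

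*Clk2* had 26.2% to 39.4% in primed and 5.74% to 16.8% in parental libraries, and *Clk3* 24.9% to 28.5% and 9.47% to 14.6%. *Srpk1* had 28.6% to 39.9% and 9.89% to 20.9%. For *Clk3* and *Srpk1* the leading transcripts are mostly exon, with 7.97% and 7.76% of bases outside, and the call depended on the scale: on shares of TPM, which divide out transcript length, limma gave a log2 odds ratio of 0.31 for *Clk3* (adjusted p = 0.237) and 0.32 for *Srpk1* (0.139) in Tu-primed cells, and of 0.02 for *Clk3* (0.959) in Spl-primed cells. *Srpk2* had lower shares, 1.33% to 2.44% in Tu-primed, 1.19% to 1.97% in Spl-primed and 0.478% to 1.21% in parental libraries, and its Spl-primed value was not called (log2 odds ratio 0.83 ± 0.34, edgeR adjusted p = 0.0855). Its Tu-primed call (adjusted p = 0.0236) was lost without parental replicate 1 or 4 or Tu-primed replicate 2 or 3 (adjusted p up to 0.0686), with the 8 libraries compared (0.0506) and on shares of TPM (limma, 0.0924).

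Genes described elsewhere for detained introns were also mostly higher, with *Clk1* and *Clk4* already counted among the kinases. Of *Clk1*, *Clk4*, *Mat2a*, *Ogt*, *Pabpn1* and *Leng8*, the share rose in 6 of 6 in Tu-primed and in 5 of 6 in Spl-primed cells (median log2 odds ratios 1.91 and 2.19), against 53.9% and 50.6% of all tested genes. *Mat2a*, which makes S-adenosylmethionine, had 0.728%, 0.723%, 0.724% and 0.790% in Tu-primed, 0.852%, 0.983%, 0.902% and 0.918% in Spl-primed and 0.123%, 0.204%, 0.205% and 0.307% in parental libraries. The 3 groups did not overlap, the Spl-primed libraries being highest, though only the differences from parental cells were called (log2 odds ratios 1.82 ± 0.24 and 2.13 ± 0.24). *Ogt*, the O-GlcNAc transferase, had 14.5% to 16.4% in Tu-primed, 7.64% to 15.7% in Spl-primed and a mean of 5.57 ± 2.13% (SD, n = 4) in parental libraries, of which the highest was 8.62%, so that the lowest Spl-primed library fell below the highest parental one. *Pabpn1*, the nuclear poly(A)-binding protein, had 0.639% to 1.23% in primed and 0.0518% to 0.480% in parental libraries. It entered the test through its primed libraries alone, and its leading retained-intron transcript overlaps another gene on the same strand. The share of *Leng8* was 9.62% to 15.0%, 6.84% to 11.4% and 2.28% to 9.27%, with adjusted p = 0.0353 and 0.131, and its Tu-primed call was lost with the replicate block (adjusted p = 0.0636), with the 8 libraries compared (0.0770), without a minimum of class reads (0.0558), on shares of TPM (limma, 0.0746) and without parental replicate 3 or 4 or Tu-primed replicate 1, 2 or 3 (up to 0.0918). Without parental replicate 2 the Spl-primed value was called (0.0373).

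**Figure D4:**
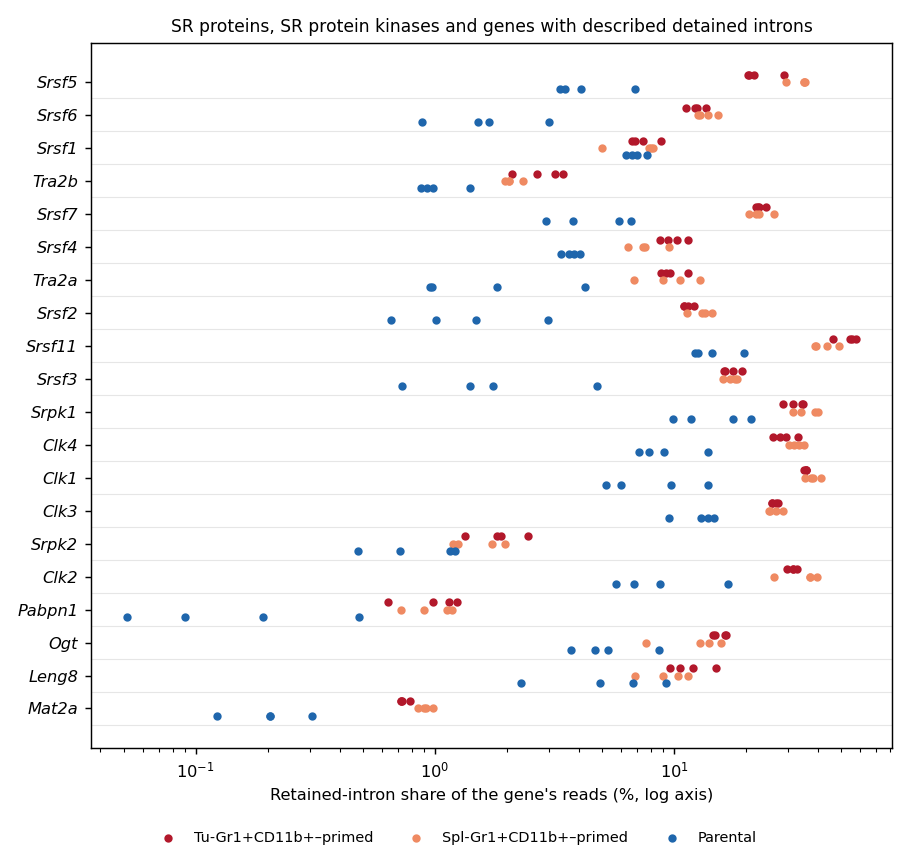
Retained-intron share of the gene's reads (%, log axis) in each of the 12 libraries for genes of SR proteins, SR protein kinases and described detained introns; each point is a library. Primed libraries lie to the right of parental ones in most genes, as for Clk1 (34.8% or more against 13.9% or less), while Srsf1 overlaps (5.01% to 8.80% against 6.29% to 7.73%).

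Other groups of RNA-processing genes are described by their counts and medians beside the 53.9% and 50.6% and the medians of 1.66 and 1.55 of all tested genes. Among genes of spliceosome components the share rose in 33 of 41 in Tu-primed and in 30 of 41 in Spl-primed cells (median log2 odds ratios 2.29 and 2.23). For hnRNP genes, whose products coat nascent RNA, the counts were 12 and 13 of 16 (1.79 and 1.73), and for other RNA-binding proteins 26 and 26 of 34 (1.76 and 1.85). Of 5 tested factors of nonsense-mediated decay, 4 rose in each primed group (2.16 and 1.90). None of the genes on these 4 lists had a lower share, and 0 were called between the primed groups.

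Groups outside RNA processing lay on both sides of the 53.9% and 50.6% called higher over all tested genes. Among cell cycle genes the share rose in 19 and 18 of 24 (median log2 odds ratios 2.10 and 1.90), and among genes of ribosomal proteins in 40 and 38 of 57 (1.92 and 2.03). Ribosomal protein genes have many processed pseudogenes, so their isoform shares are uncertain. For translation factors the counts were 18 and 17 of 29 (2.09 and 1.98), for tRNA synthetases 10 and 11 of 16 (1.62 and 1.94), and for mitochondrial ribosomal proteins 22 and 22 of 38, or 57.9% in each (1.85 and 1.71). Oxidative phosphorylation genes, with 20 and 19 of 39, or 51.3% and 48.7%, lay just under the percentages of all tested genes (1.85 and 1.29). Zinc finger genes of the Zfp series had 35 higher and 1 lower (*Zfp748*) of 78 in Tu-primed and 31 higher in Spl-primed cells, or 44.9% and 39.7% higher, below those of all tested genes (1.22 and 1.21).

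Interferon-stimulated genes were compared in share and in level. In Tu-primed cells the coding level of 21 of 23 tested genes of this list rose, where 17.8% of all 11821 coding levels rose. The retained-intron share rose in 9 (median log2 odds ratio 1.70). In Spl-primed cells the coding level rose in 1, where 12.3% of all coding levels rose, and the share in 6 (1.70). The counts of 9 and 6 higher shares are 39.1% and 26.1% of the list, below the 53.9% and 50.6% of all tested genes. The list's medians of 1.70 and 1.70 were not below the 1.66 and 1.55 of all tested genes, so fewer calls did not go with a smaller median change. Of the granulocyte markers 1 could be tested and was not called, and none of the epithelial or macrophage markers with 20 or more reads had a retained-intron transcript. Of 5 nuclear-retained RNAs on a list, 0 were found among the genes used here, so they could not be tested.

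Among the genes with the most retained-intron reads, *Ncl* and *Gapdh* had small differences in share. *Ncl*, the nucleolar protein nucleolin, had 71.5%, 70.8%, 71.3% and 73.4% in Tu-primed, 70.9%, 72.8%, 69.7% and 72.1% in Spl-primed and a mean of 69.1 ± 0.958% (SD, n = 4) in parental libraries. The Tu-primed libraries lay just above the parental ones and the Spl-primed ones overlapped them, and the log2 odds ratio was 0.18 ± 0.12 (adjusted p = 0.294) and 0.15 ± 0.12 (0.378) in edgeR's test. The *Ncl* transcript with the intron printed above took 26323 to 41084 reads in primed and 37802 to 47728 in parental libraries, and 22.2% of its bases lie outside coding exons. *Gapdh*, the glycolytic dehydrogenase, had 35.2% to 41.3% in Tu-primed, 37.3% to 42.9% in Spl-primed and 32.8% to 34.6% in parental libraries. Its log2 odds ratio was 0.28 ± 0.14 (adjusted p = 0.140) and 0.40 ± 0.14 (0.0453), and the Spl-primed call was lost under most alternatives, among them the 8 libraries compared (adjusted p = 0.0945).

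*Ctnnb1*, which encodes beta-catenin, had 31.0% to 38.5% in primed and 27.5% to 31.0% in parental libraries. *Vim*, an intermediate filament, had 15.0% to 17.2% and 11.8% to 15.2%. *Calr*, a chaperone of the endoplasmic reticulum, had 28.1% to 32.8% and 26.5% to 30.4%, and *Eef1g*, a translation elongation factor subunit, 33.3% to 43.2% and 31.1% to 38.2%. None of these was called by edgeR's test on all libraries, while *Vim* was called higher by DESeq2 in both comparisons (adjusted p = 0.0162 and 0.0431) and by edgeR in Tu-primed cells without parental replicate 2 (0.0415). Genes of ribosomal proteins completed the set, with 82.5% to 86.7% and 79.2% to 84.1% in *Rps16*, 74.8% to 79.3% and 74.5% to 79.4% in *Rps20*, 77.1% to 84.8% and 73.3% to 82.6% in *Rps26* and 12.4% to 19.3% and 16.1% to 19.6% in *Rplp0*, all overlapping and not called. When only transcripts holding a whole intron were counted, *Rps16* was called with a log2 odds ratio of 2.81 in Tu-primed and 2.90 in Spl-primed cells and *Vim* with 2.92 and 2.31. That setting leaves out the short, mostly exonic transcripts that held most of their reads.

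Lower shares were few, and those named were again chosen for groups that did not overlap. *Abcc10*, an ATP-driven efflux transporter, had 32.3%, 29.1%, 30.7% and 38.4% in Tu-primed, 38.4%, 37.2%, 41.6% and 31.3% in Spl-primed and 51.9%, 60.7%, 59.2% and 55.7% in parental libraries. The log2 odds ratios were -1.45 ± 0.28 and -1.18 ± 0.28 (edgeR adjusted p = 0.00227 and 0.00786). Its retained-intron level differed by -0.16 and -0.20 log2, not called, whereas its coding level rose by 1.22 and 1.00 log2. *Ccdc82* and *Rbl1* had the same form. The share of *Rbl1*, which encodes the pocket protein p107, was 9.43% to 13.4% in primed and 17.1% to 20.2% in parental libraries, and its coding level rose by 0.52 and 0.53 log2 while its retained-intron level differed by -0.18 and -0.17. The share of *Ccdc82* was 3.25% to 4.22% against 4.83% to 7.70%, with coding levels 1.11 and 0.97 log2 higher. In edgeR's test the Tu-primed call of *Rbl1* was lost without Tu-primed replicate 1 (adjusted p = 0.0539) and its Spl-primed call without Spl-primed replicate 4 (0.0573) or with the 8 libraries compared (0.0588). The Spl-primed call of *Ccdc82* was lost without parental replicate 1 or 3 or Spl-primed replicate 2 (0.0514 to 0.0616), with the 8 libraries compared (0.0713), without a minimum of class reads (0.0553) and on shares of TPM (limma, 0.0580).

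In *Vamp3*, a SNARE of vesicle fusion, and *Spata7* the retained-intron reads themselves fell. *Vamp3* had 23.8% to 35.0% in primed and 36.0% to 46.6% in parental libraries, and its retained-intron level fell (-0.85 and -0.83 log2). *Spata7* had 27.0% to 49.5%, 32.9% to 41.7% and 55.3% to 63.9% in the 3 groups, with levels -0.77 and -0.97 log2. The Spl-primed call of *Vamp3* was lost without parental replicate 2 or 4 or Spl-primed replicate 1, 2 or 4 (adjusted p up to 0.0720), with the replicate block (0.0546), with the 8 libraries compared (0.0545) and without a minimum of class reads (0.0534). *Htra1*, a secreted protease, had 1.17% to 1.78%, 1.42% to 2.17% and 2.21% to 3.74%. *Htra1* was called in both comparisons by edgeR on all libraries, and both calls were lost on shares of TPM (limma adjusted p = 0.486 and 0.783). Its Spl-primed call was also lost on counts of reads, with limma on logit shares (0.0769), the replicate block (0.0714), the 8 libraries compared (0.0882), no minimum of class reads (0.0755) and without parental replicate 1, 3 or 4 or Spl-primed replicate 1, 2 or 3 (up to 0.106).

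*Wdr82*, *Dst* and *Uox* were called lower in Tu-primed and not in Spl-primed cells, and whether they differed between the primed groups was not called for any of them. That contrast depended on the setting for *Dst* and *Wdr82*. *Dst* was also called lower in Spl-primed cells with DESeq2 (adjusted p = 0.0155), with limma on shares of TPM (0.0374) and without Spl-primed replicate 1 (0.0397). *Wdr82* was called lower in Spl-primed cells without Spl-primed replicate 1 (0.0463), and its Tu-primed call was lost with limma (0.0595, and 0.132 on shares of TPM). *Dst*, a cytoskeletal linker, had 0% to 0.193% and 0.939% to 2.47%, and *Uox*, the urate oxidase gene, 0% to 2.44% and 4.76% to 11.9%, in Tu-primed and parental libraries. The leading transcripts of *Dst* and *Uox* have 9.86% and 9.82% of bases outside coding exons, and both genes had Tu-primed libraries at 0%. In Spl-primed cells *Lmnb1*, *Disp1*, *Stk39*, *Polr3b* and *C2cd3* were called lower, and for *Lmnb1*, *Stk39*, *Polr3b* and *C2cd3* between 2 and 4 of the 4 Spl-primed libraries were at 0%. Their difference between the primed groups was not called. *Polr3b*, a subunit of RNA polymerase III, had 0% in all 4 Spl-primed and 1.19% to 2.38% in parental libraries. The *C2cd3* call was lost without parental replicate 4 or Spl-primed replicate 4 (edgeR adjusted p = 0.0528 and 0.0502) and with the 8 libraries compared (0.0743). *Uox*, *Lmnb1*, *Polr3b* and *C2cd3* did not have 5 retained-intron reads on average in every group. In these 5 genes between 6.34% and 21.8% of the leading transcript lay outside coding exons.

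The counts were also split by the make-up of a gene's leading retained-intron transcript, the one with the most reads, without a test. In Tu-primed cells the share rose in 34.8% of 1792 genes whose leading transcript had under 25% of its bases outside coding exons. It rose in 59.3% of 1340 genes with 25% to 50%, in 69.1% of 982 with 50% to 75% and in 68.9% of 805 above that. In Spl-primed cells the corresponding percentages were 34.0, 53.9, 66.1 and 63.2. Median retained-intron reads fell over the same classes, from 72.5 to 37.6, 31.6 and 25.4. Genes with few such reads could enter the test through their primed libraries alone, and this split was not repeated with the minimum in every group. Where the leading transcript held a whole intron, the share rose in 70.7% of 1898 genes in Tu-primed and 67.7% in Spl-primed cells, compared with 43.4% and 39.9% of 3021 genes where it did not. Cut into 4 classes of equal size by gene reads, the tested genes had 43.2%, 52.8%, 57.7% and 62.0% called higher in Tu-primed cells, from fewest to most reads, so that depth moved with the counts.

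Split by the share in parental cells, the percentages fell from the lowest class to the highest. In Tu-primed cells the share rose in 68.1% of 2070 genes under 1% in parental cells, 50.2% of 2104 between 1% and 10%, 27.4% of 639 between 10% and 50% and 11.3% of 106 at 50% or more. The same parental values enter both the split and the comparison, so this is a description. Genes in the lowest class could also enter the test through their primed libraries alone, which favours a high percentage there. The split was not repeated with the minimum in every group. A mean share over 10% was found in 1417 genes in Tu-primed, 1390 in Spl-primed and 753 in parental cells, and over 50% in 163, 161 and 114.

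Introns held by leading transcripts of genes that rose had a greater median length and a lower median GC content than those of other tested genes. In Tu-primed cells the median length was 396 bases for 2428 introns of genes called higher and 218 bases for 803 introns of the others, and the median GC content 50.2% and 53.2%. In Spl-primed cells the medians were 376 and 253 bases and 50.6% and 52.1%. The 5′ splice site letters GTAAGT opened 9.39% and 8.47% of these introns in Tu-primed cells, and GTGAGT 14.9% and 13.4%, counted on the gene's strand at the first 6 bases. In Spl-primed cells the order for GTAAGT was the opposite, 8.89% against 9.87%, and GTGAGT opened 15.7% and 11.4%. Over all 6765 GT–AG introns held by members the percentages were 9.56 and 14.5. Introns of 1 gene share a source, and the values are given without a test.

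Over all genes tested, retained-intron levels were mostly higher in primed cells, and coding levels differed less in the median. Levels were compared with TMM normalization and edgeR's quasi-likelihood test over 21506 rows of gene and isoform class. In Tu-primed against parental cells the retained-intron level rose in 2645 of 4637 genes and fell in 149, where 27.0% of all rows were called higher and 22.8% lower, with a median of 1.51 log2. In Spl-primed cells it rose in 2478 and fell in 136, where 22.5% and 21.1% of rows were called, with a median of 1.38. Coding levels of 11821 genes rose in 2100 and fell in 4290 in Tu-primed (median -0.11) and rose in 1455 and fell in 3990 in Spl-primed cells (median -0.12). Of the genes with a higher share, the retained-intron level could be tested in 2555 in Tu-primed cells and rose in 2337, while the coding level rose in 431 and fell in 1227 of 2646. In Spl-primed cells it rose in 2194 of 2389, with the coding level higher in 307 and lower in 1089 of 2484. Genes with a higher share were chosen by the same retained-intron reads. A higher retained-intron level in most of them is therefore largely a property of the choice.

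**Figure D5:**
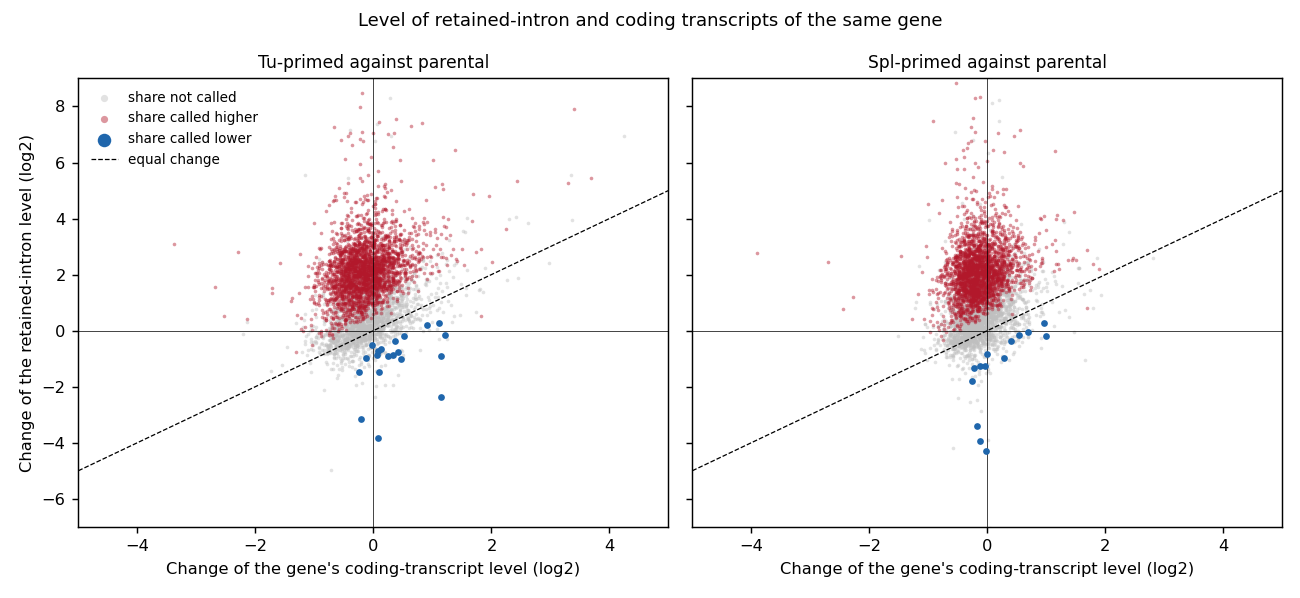
Change of the retained-intron level against the change of the coding level of the same gene (both log2), in Tu-primed and Spl-primed against parental cells; each point is a gene, coloured by the call on its share, and the dashed line marks equal change. Most genes with a higher share lie above 0 on the vertical axis (median 2.14 and 2.07 log2) and near 0 on the horizontal axis (median -0.17 in both). These genes were chosen by the same retained-intron reads, so their height is largely a property of the choice.

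Single genes differed in how their levels moved. *Srsf3* had a retained-intron level 2.95 and 2.94 log2 higher in Tu-primed and Spl-primed cells, while its coding level differed by -0.88 and -0.77 log2. *Rab24* rose in both its retained-intron (3.26 and 3.25 log2) and its coding level (0.43 and 0.29). *Clk1* rose by 3.19 and 3.08 log2 in retained-intron level, with a coding level 0.27 and 0.09 log2 higher, the second not called. In genes with many retained-intron reads both levels could fall, as in *Ncl* (-0.70 and -0.88 log2 in Tu-primed cells) and *Rps20* (-0.81 and -0.77).

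Between the primed groups the retained-intron level rose in 22 genes of Tu-primed cells and fell in 1, where 1.87% and 0.498% of all rows were called higher and lower. These are 0.474% and 0.0216% of the 4637 genes tested. The count of 22 was 7 with the replicate block and 50 with DESeq2, and fell to 8, 9 and 10 without Tu-primed replicate 1, 2 or 3 and to 10, 14 and 13 without Spl-primed replicate 1, 2 or 3. The genes named here were chosen after their values were seen. Of the 22, 8 stand on the interferon-stimulated list and 15 had a higher coding level as well. *Irf7*, a transcription factor of the interferon response, had 259, 146, 203 and 19.3 retained-intron reads in Tu-primed and 6.32, 2.39, 2.61 and 1.17 in Spl-primed libraries. Tu-primed replicate 4 was the lowest of its group and still above every Spl-primed library (log2 difference 5.73 ± 0.88, adjusted p = 0.00423). *Irf9*, part of the complex that binds interferon response elements, had 139, 147, 133 and 94.3 reads in Tu-primed and 16.7, 22.2, 34.2 and 19.4 in Spl-primed libraries (2.53 ± 0.33). The coding levels of *Irf7* and *Irf9* were 4.19 and 2.74 log2 higher, and their retained-intron shares were not called (adjusted p = 1).

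*Osmr*, the oncostatin M receptor, had 95.6, 78.9, 99.6 and 80.9 retained-intron reads in Tu-primed and 27.9, 33.9, 13.7 and 30.5 in Spl-primed libraries (log2 difference 1.79 ± 0.38). The groups did not overlap, and its coding level was 2.06 log2 higher. The gene that fell was *Mrpl38*, of the mitochondrial ribosome, with 101, 97.8, 91.0 and 168 reads in Tu-primed and 612, 252, 811 and 320 in Spl-primed libraries (-2.05 ± 0.39). Its call was lost without Spl-primed replicate 1 and without Tu-primed replicate 1 or 2, each of which left 0 genes called lower.

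Reads on genes that mammary cells are not known to express were counted as well. Over 1960 olfactory and vomeronasal receptor genes, chosen after the data were seen, the summed level was 693 to 852 CPM in primed and 504 to 710 CPM in parental libraries. The highest parental value was that of replicate 2, which also had the highest parental median share, and Spl-primed replicate 3 lay below it. Receptor genes with at least 1 read numbered 272 to 290 in primed and 210 to 250 in parental libraries. The part of such reads in the retained-intron shares was not tested.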

How the data were processed

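Bulk RNA-Seq of 12 libraries in 3 groups of 4 was analysed. The authors deposited, for each library, estimated counts of reads per transcript and TPM values, which scale for transcript length and depth. The submitters' processing notes name Trimmomatic 0.39, FastQC and Salmon 1.4.0 with GRCm38. A deposited normalized signal per gene was not used. GENCODE M21 gave transcript types, and under 0.434% of a library's reads lay on transcripts it does not hold. The members and all gene lists were chosen with earlier results of these data known.

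Estimated counts were summed per gene and isoform class and rounded. Shares were tested with edgeR 4.0.16 on class reads and the gene's other reads, with terms for library, class and class by group. Levels were tested with TMM factors (0.826 to 0.937 in parental, 1.04 to 1.09 in primed libraries) and filterByExpr. Benjamini-Hochberg adjustment was used throughout, and values per library were compared by exact permutation. Genes named were the 10 with the smallest p in each direction and comparison among those called whose groups did not overlap, the 10 with most retained-intron reads, and members of the SR protein, SR protein kinase and detained-intron lists. Of the 58 genes this rule gave, 2 are not reported here. Others were named after their values were seen. R 4.3.3, limma 3.58.1, DESeq2 1.42.0, Python 3.11.15, pandas 2.3.3, numpy 2.4.6, scipy 1.17.1 and matplotlib 3.10.9 were used. The tests across genes were tested on simulated data. No 2 libraries of a group were alike within counting error. Alternatives were another tool, TPM shares (pseudocount 0.01), stricter or no minimums, whole introns only, the 8 libraries compared, a replicate block, another threshold and leaving out each library.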

Additional observations from a re-analysis of the deposited data

Results flagged for a closer look

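Among 174 groups of 4 libraries, over the named genes and the pooled and median shares, 12 had a library that stood apart from the other 3 in retained-intron share by Dixon's criterion, which compares its gap to the nearest library with the group's range, where chance gives about 5% of groups. In Tu-primed cells these were *Hsp90ab1* in replicate 2 (0.171%, others 0.122% to 0.129%), *Rbl1* in replicate 1 (9.83%, others 12.3% to 12.8%), and in replicate 4 *Pdhb* (3.67%, others 5.05% to 5.31%), *Srsf5* (28.7%, others 20.4% to 21.5%), *Stk39* (7.65%, others 0.587% to 1.68%) and *Mat2a* (0.790%, others 0.723% to 0.728%). In Spl-primed cells they were *Srsf5* in replicate 1 (29.2%, others 34.8% to 35.3%), *Vim* in replicate 1 (15.0%, others 16.4% to 16.6%), *Lmnb1* in replicate 3 (0.408%, the others at 0%) and *Srsf1* in replicate 3 (5.01%, others 7.86% to 8.16%). In parental cells they were *Haus5* in replicate 1 (0.280%, others 0.721% to 0.797%) and *Rbl1* in replicate 3 (20.2%, others 17.1% to 17.4%).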

How the results depend on the processing

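The counts of genes with a higher retained-intron share were 2652 in Tu-primed and 2489 in Spl-primed cells. Counting only transcripts that hold a whole intron, with 2422 genes tested, gave 1673 and 1582, and an adjusted p under 0.01 gave 1620 in Spl-primed cells. For the whole-intron counts no percentage over all rows is given. The 21 lower shares in Tu-primed cells became 13 with the 8 libraries compared, 11 without a minimum of class reads, 5 with whole introns and 4 at an adjusted p under 0.01. The 16 in Spl-primed cells became 8 with the 8 libraries compared, 35 with DESeq2, 3 with whole introns and 2 at the stricter threshold. The 22 genes with a higher retained-intron level in Tu-primed than in Spl-primed cells became 50 with DESeq2, and the 1 lower gene became 3 with the 8 libraries compared and 13 with DESeq2. The *Dst* share reversed to 1.38 (adjusted p = 0.525) in Tu-primed cells when only whole introns counted. The causes were not tested.

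Leaving out each library in turn gave 2239 to 2770 higher and 12 to 20 lower shares in Tu-primed cells and 2067 to 2636 and 11 to 19 in Spl-primed cells. The highest counts of higher shares were those without parental replicate 2. Between the primed groups 0 shares were called in every such fit, and the level gave 8 to 29 higher and 0 to 2 lower genes. The pooled difference lay between 1.20 and 1.29 percentage points in Tu-primed, 1.12 and 1.32 in Spl-primed cells and -0.0745 and 0.120 between the primed groups. With 3 libraries against 4, the exact test cannot reach an adjusted p under 0.05, and those values are read as sizes only.

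With the replicate block the share rose in 2411 and fell in 16 genes in Tu-primed cells, rose in 2214 and fell in 11 in Spl-primed cells, and was called in 0 genes between them. The level was called higher in 7 and lower in 2 genes between the primed groups. Same-numbered libraries showed no shared deviation: 0 of 12 pairs had a correlation over 0.1 (-0.0589 to 0.0375), and 3 correlated best with their own number. Libraries prepared together need not deviate together, so this does not settle whether the numbers pair the samples. Paired by number, the exact permutation test gave p = 0.125 for the pooled and the median difference of each primed group from parental cells. With 4 pairs that exact permutation test can give no smaller p.

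Estimated counts limit these values. Reads on shared exons were divided by a model, parental shares can rest on few reads, and intervals cover the spread of 4 libraries only. The leading transcripts of 12 of the 56 named genes overlap another gene on either strand, 2 of them on the same strand. *Rab24*, *Colgalt1*, *Srsf2*, *Clk3*, *Leng8*, *Mat2a* and *Ctnnb1* are among those with a gene on the other strand. The part of such overlaps in the shares was not tested. Of the changes of single named genes under all alternatives other than leaving out a library, 1114 stayed on the same side of the threshold. Of the rest, 48 were weaker, 9 stronger and 1 reversed. A change of sign where neither fit was called was not counted as a reversal, and the stricter threshold reused the main estimate.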
